A study of Mus musculus with 15 samples.

Results

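Glucose handling separates the liver from most other tissues, and 8 genes of that division are described here in hepatocyte messenger RNA. Of these genes 5 are typical of the liver, namely Pck1, G6pc, Fbp1, Pklr and Slc2a2, and 3 are the forms used by most other tissues, namely Hk1, Hk2 and Pkm. They were taken by symbol and Ensembl gene ID from the 56953 genes in the files, all 8 were found, and all 8 passed the filter on low counts.

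The 15 libraries came from primary mouse hepatocytes of 4 groups. They were transgenic ΔEGFR mice given carbon tetrachloride (CCl4, n = 4), ΔEGFR mice given mineral oil (n = 4), wild-type (WT) mice given CCl4 (n = 3) and WT mice given mineral oil (n = 4). CCl4 is a liver toxin that is made harmful within hepatocytes, and mineral oil is the usual vehicle for it. The title of the series places the work in the study of the EGFR pathway and the fibrotic liver. The labels give no strain, age, sex, dose or time, no promoter and no species for the ΔEGFR transgene, and nothing on pooling, so the genotype labels were not checked against the transgene. Nothing states that the libraries of a group came from separate animals, so the spread behind the p-values may be technical. The labels give no replicate numbers either, and those used here follow the order in which the samples of a group are listed.

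Liver cells both make and burn glucose. Phosphoenolpyruvate carboxykinase (Pck1), fructose-bisphosphatase (Fbp1) and glucose-6-phosphatase (G6pc) carry the steps of gluconeogenesis that bypass the irreversible steps of glycolysis, and the transporter GLUT2 (Slc2a2) lets glucose pass the hepatocyte membrane in both directions. In the other direction, hepatocytes end glycolysis with the liver pyruvate kinase (Pklr), whereas most other cells, macrophages among them, use the hexokinases Hk1 and Hk2 and the muscle-type pyruvate kinase (Pkm).

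The stretches just before the start sites of 5 of the genes are shown so that genes of both sets can be read side by side. Each has 250 bases, is given 5′ to 3′ on the gene's own strand and comes from the RefSeq promoter table of mouse build GRCm38.p6, while the deposited counts were made on GRCm39. For Pklr the downstream of its start sites is shown, and for Pkm the upstream one. Capitals mark every match, on either strand, to a TATA box (TATAAA), a GC box (GGGCGG), the core of the cAMP response element (TGACG) or that of the hypoxia response element (ACGTG).
Pck1, chr2:173152823-173153072, plus strand: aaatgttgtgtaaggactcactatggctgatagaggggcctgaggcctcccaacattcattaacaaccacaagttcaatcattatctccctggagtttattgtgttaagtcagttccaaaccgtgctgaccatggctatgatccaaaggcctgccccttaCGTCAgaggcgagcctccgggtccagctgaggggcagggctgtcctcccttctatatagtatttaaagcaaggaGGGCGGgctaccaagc
G6pc, chr11:101367466-101367715, plus strand: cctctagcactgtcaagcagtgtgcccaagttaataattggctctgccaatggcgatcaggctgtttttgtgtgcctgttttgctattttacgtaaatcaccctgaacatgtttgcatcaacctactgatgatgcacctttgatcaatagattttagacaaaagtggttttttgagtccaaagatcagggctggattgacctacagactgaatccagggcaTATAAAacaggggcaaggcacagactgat
Pklr, chr3:89136373-89136622, plus strand: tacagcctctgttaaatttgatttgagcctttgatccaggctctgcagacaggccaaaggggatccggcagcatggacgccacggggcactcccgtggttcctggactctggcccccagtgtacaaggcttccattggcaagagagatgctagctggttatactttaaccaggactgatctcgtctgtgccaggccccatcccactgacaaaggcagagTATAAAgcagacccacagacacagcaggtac
Hk2, chr6:82774455-82774704, minus strand: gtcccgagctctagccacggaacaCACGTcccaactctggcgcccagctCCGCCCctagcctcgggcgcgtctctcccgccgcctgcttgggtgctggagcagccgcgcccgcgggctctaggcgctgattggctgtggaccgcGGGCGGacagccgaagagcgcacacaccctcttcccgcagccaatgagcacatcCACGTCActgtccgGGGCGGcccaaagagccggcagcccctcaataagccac
Pkm, chr9:59656326-59656575, plus strand: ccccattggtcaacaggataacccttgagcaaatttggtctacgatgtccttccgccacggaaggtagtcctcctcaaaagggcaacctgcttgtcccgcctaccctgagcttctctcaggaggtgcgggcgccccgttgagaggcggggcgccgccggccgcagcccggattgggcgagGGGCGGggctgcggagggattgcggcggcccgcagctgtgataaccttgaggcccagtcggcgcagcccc

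Of the windows printed Hk2 held 69.6% G and C and Pkm 66.4%, against 50.8% in Pck1, 43.2% in G6pc and 54.4% in Pklr, and the median of all 32851 such windows was 52.4%. Among the windows not printed, Fbp1 held 56.4%, Slc2a2 47.2% and the Hk1 start sites 49.6% and 62.8%. Positions count back from the start site to the first base of a match. G6pc held a TATA box at −29 and Pklr at −31, a motif that 12.4% of all windows hold. Hk2 had GC boxes at −201, −106 and −38 and Pkm had one at −70, a motif found in 32.7% of all windows and also in Pck1, at −16, and Fbp1, at −84. The cAMP core lay at −90 in Pck1 and at −50 in Hk2 (17.8% of all windows), and in Hk2 it overlapped a hypoxia core at −52, with another at −226 (16.6% of all windows). The downstream Pkm window, not shown, had a hypoxia core at −75. No window of the members held the whole cAMP element (TGACGTCA), the E-box (CACGTG) or the HNF1 site, and the windows of Slc2a2, Hk1 and the upstream Pklr start had none of the motifs searched. These are matches of letters only.

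Total counts ran from 51.7 M to 155.4 M per library, in a lower range of 6 libraries (51.7 to 61.9 M) and a higher one of 9 (96.2 to 155.4 M). WT mineral oil replicate 1 stood apart. Its summed neutrophil markers reached 5341 TPM (a transcript level per length that sums to the same total in every library), against at most 1118 TPM in any WT CCl4 library and 567 TPM in any ΔEGFR library, and its red cell markers summed to 3222 TPM. In the 15 libraries 11 hepatocyte markers summed to between 73517 and 161666 TPM and overlapped among the groups. Alb had the highest median of these markers in every group, and their sum does not measure the purity of the cells. Single markers of that list went both ways in WT, with more of them lower than higher with CCl4 by median. Median Hnf4a was 175 TPM with CCl4 and 307 TPM with mineral oil, and Cps1 518 and 1070.1 TPM. Median Alb was 55087 TPM with CCl4 and 50019.6 TPM with mineral oil, and Ahsg 10157 and 8585 TPM. Apoa1, Apob, Fgb, Serpina1c and Hpx were also lower with CCl4 in WT, and Ttr and Trf higher. In ΔEGFR median Alb was lower with CCl4 (47634 against 53811 TPM), as were Hnf4a and Cps1, and Ahsg was higher (13878 against 8191 TPM). Macrophage markers did not overlap between treatments. Their 16 genes summed to 3416 to 9856 TPM in ΔEGFR CCl4, 57.5 to 1512 TPM in ΔEGFR mineral oil, 3151 to 11494 TPM in WT CCl4 and 114 to 2123 TPM in WT mineral oil.

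Across both genotypes, CCl4 went with less transcript of 3 liver genes and more of 2 of the other set. Pck1 was 3.63-fold, Fbp1 2.22-fold and Slc2a2 1.97-fold lower with CCl4, and Pkm was 6.23-fold and Hk2 3.89-fold higher. G6pc, Pklr and Hk1 did not pass. This comparison averaged the CCl4 effect over ΔEGFR and WT, and a gene was called at an adjusted p under 0.05 in edgeR's quasi-likelihood test with Benjamini-Hochberg adjustment over 17975 genes. The 5 of 8 members called are to be read beside the 27.1% of all tested genes that were called (12% higher, 15.1% lower). Without the adjustment, 7 of 8 members and 7117 genes had p under 0.05. The median log2 fold change of all tested genes was −0.02 here and 0.42 without a scaling factor between libraries, so changes are relative to that centre. Of all genes 2157 were called higher and 2719 lower with TMM factors, against 5759 higher and 882 lower without, and all 5 called members were called in the same direction without the factor too (adjusted p = 0.00703 to 0.0384). In bulk RNA fewer cells of a type and less RNA per cell cannot be told apart.

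**Figure D1:**
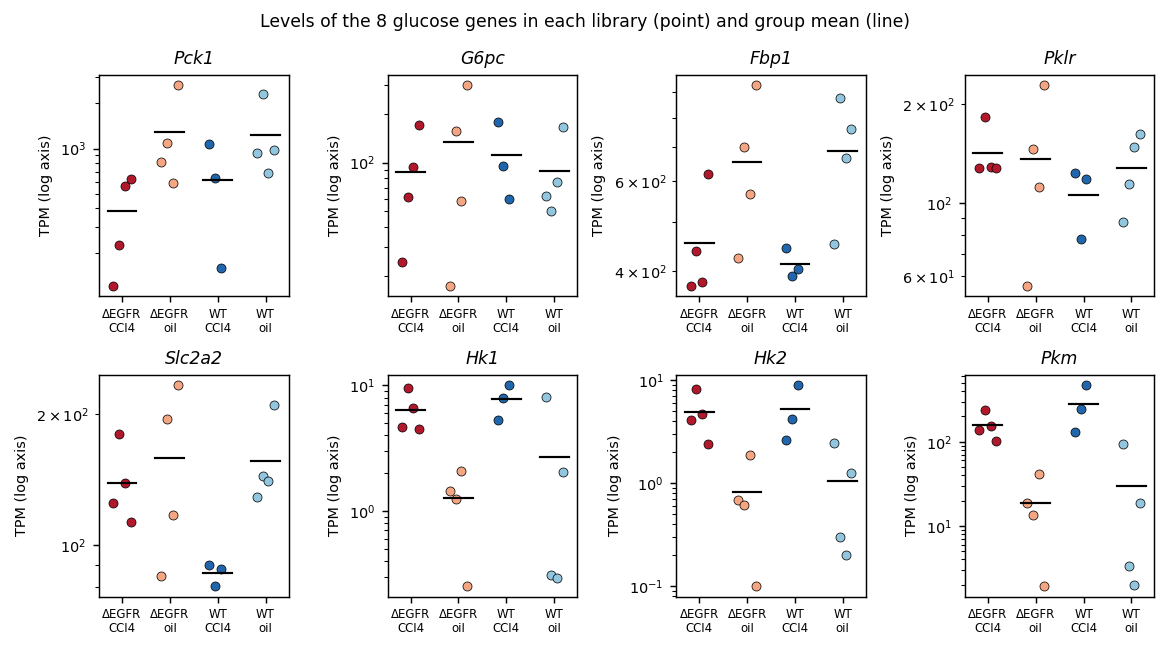
Transcript level of each of the 8 genes in TPM on a logarithmic axis, with 1 point per library and a line at the group mean, for ΔEGFR CCl4 (n = 4), ΔEGFR mineral oil (n = 4), WT CCl4 (n = 3) and WT mineral oil (n = 4). Pkm lies between 102 and 474 TPM in all CCl4 libraries and between 1.91 and 94.3 TPM in all mineral oil libraries, whereas the G6pc points of the groups overlap.

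Pck1 (ENSMUSG00000027513, chromosome 2), which turns oxaloacetate into phosphoenolpyruvate, had the highest mean TPM of the members in both mineral oil groups. It had 121, 227, 567 and 624 TPM in ΔEGFR CCl4 and 810.2, 1086, 589 and 2668 TPM in ΔEGFR mineral oil. In WT it had 1071, 632 and 159 TPM with CCl4 and 939, 2305, 691 and 982 TPM with mineral oil. The treatments overlapped in both genotypes, by 1 library in ΔEGFR and by the highest CCl4 library in WT, which exceeded 3 of the 4 WT mineral oil libraries. Its mean ± SD was 385 ± 248 TPM in ΔEGFR CCl4 (n = 4), 1288 ± 942 TPM in ΔEGFR mineral oil (n = 4), 620.5 ± 456 TPM in WT CCl4 (n = 3) and 1229 ± 728 TPM in WT mineral oil (n = 4), so both CCl4 groups ranked below both mineral oil groups, but no neighbours in that order differed by more than the larger of their SDs. The averaged log2 fold change was −1.86 ± 0.58 (SE, adjusted p = 0.0301). The call was lost without ΔEGFR CCl4 replicate 2 (adjusted p = 0.0579), ΔEGFR mineral oil replicate 4 (0.063), WT CCl4 replicate 2 (0.0741) or 3 (0.0723) or WT mineral oil replicate 2 (0.0618). Over all 24 other settings its adjusted p ran from 0.00343 to 0.202.

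Within single genotypes Pck1 did not pass, with −2.27 ± 0.78 (adjusted p = 0.108) in ΔEGFR and −1.45 ± 0.84 (adjusted p = 0.276) in WT. Among deep ΔEGFR libraries the difference in mean log2 CPM (counts scaled to library size) was −2.66 (3 CCl4 against 4 mineral oil), and among shallow WT libraries it was −0.92 (2 against 3). The one deep pair of WT libraries differed by −3.26, and ΔEGFR had no shallow mineral oil library.

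Fbp1 (ENSMUSG00000069805, chromosome 13) removes a phosphate from fructose 1,6-bisphosphate and so opposes phosphofructokinase. It had 373, 438, 379.8 and 619.6 TPM in ΔEGFR CCl4 and 423, 701, 566 and 930.2 TPM in ΔEGFR mineral oil. WT libraries had 443, 391 and 404 TPM with CCl4 and 451, 874, 667 and 759.8 TPM with mineral oil. All WT CCl4 libraries lay below all WT mineral oil libraries, with 443 and 451 TPM at the nearest pair, and the ΔEGFR groups overlapped. The group means ± SD were 453 ± 115 TPM in ΔEGFR CCl4 (n = 4), 655 ± 216 TPM in ΔEGFR mineral oil (n = 4), 413 ± 27.1 TPM in WT CCl4 (n = 3) and 688 ± 179 TPM in WT mineral oil (n = 4), and no neighbours in the order of means stood apart by more than the larger SD. The averaged change was −1.15 ± 0.23 (adjusted p = 0.00349), and the change in WT was −1.25 ± 0.34 (adjusted p = 0.0327). In ΔEGFR it was −1.05 ± 0.31 and did not pass (adjusted p = 0.0702), although leaving out any 1 of 3 libraries brought it below the threshold. These were ΔEGFR CCl4 replicate 4 (adjusted p = 0.0346), ΔEGFR mineral oil replicate 3 (0.0498) and WT mineral oil replicate 1 (0.0362). The averaged call held without any single library, and over all 24 other settings its adjusted p ran from 2.79e-05 to 0.0504. The WT call was lost without any 1 of the 3 WT CCl4 libraries (adjusted p = 0.0582, 0.101 and 0.135 without replicates 1, 2 and 3) or of WT mineral oil replicates 2, 3 and 4 (0.0936, 0.0701 and 0.0546). In mean log2 CPM the deep ΔEGFR libraries differed by −1.01, the shallow WT libraries by −1.29 and the deep WT pair by −0.83.

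G6pc (ENSMUSG00000078650, chromosome 11), the enzyme that releases free glucose and the last step of gluconeogenesis, varied as much within groups as between them. It had 24.4, 61.6, 94.1 and 170.5 TPM in ΔEGFR CCl4 and 17.3, 157, 58.1 and 303 TPM in ΔEGFR mineral oil. The WT libraries held 177, 95.8 and 59.6 TPM with CCl4 and 61.9, 50.2, 75.8 and 166 TPM with mineral oil. Both the lowest and the highest of the 15 values were ΔEGFR mineral oil libraries. Means ± SD of the groups were 87.6 ± 62.1 TPM in ΔEGFR CCl4 (n = 4), 134 ± 127 TPM in ΔEGFR mineral oil (n = 4), 111 ± 60.2 TPM in WT CCl4 (n = 3) and 88.5 ± 52.7 TPM in WT mineral oil (n = 4), with no neighbours apart by more than an SD. Averaged over genotypes the change was −0.56 ± 0.58 (adjusted p = 0.497), with −1.04 ± 0.78 in ΔEGFR (adjusted p = 0.427) and −0.09 ± 0.84 in WT (adjusted p = 0.957). Its sign in WT turned positive (0.27) without a scaling factor.

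Slc37a4 carries glucose 6-phosphate into the endoplasmic reticulum, where G6pc acts on it, and it did pass in the average over genotypes. It had 88.1, 95.9, 69.3 and 56.7 TPM in ΔEGFR CCl4 and 64.3, 84.3, 89.4 and 154 TPM in ΔEGFR mineral oil. Among WT libraries it had 53.5, 44.1 and 35.1 TPM with CCl4 and 72.8, 121, 96.3 and 111 TPM with mineral oil, without overlap. Its averaged change was −1.32 ± 0.21 (adjusted p = 0.00119), and the call held under all other settings (adjusted p at most 0.0121). In ΔEGFR alone the treatments overlapped and Slc37a4 was not called.

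Slc2a2 (ENSMUSG00000027690, chromosome 3), the hepatocyte glucose transporter GLUT2, was lower with CCl4 in every WT library. It had 125, 180.0, 139 and 113 TPM in ΔEGFR CCl4 and 85, 195, 117 and 233 TPM in ΔEGFR mineral oil. In WT it had 90, 80.4 and 88.1 TPM with CCl4 and 129, 144, 140.3 and 209.8 TPM with mineral oil. The WT treatments did not overlap, the ΔEGFR treatments did, and all ΔEGFR CCl4 libraries were above all WT CCl4 libraries. Its mean ± SD was 139 ± 29.3 TPM in ΔEGFR CCl4 (n = 4), 158 ± 68.5 TPM in ΔEGFR mineral oil (n = 4), 86.2 ± 5.07 TPM in WT CCl4 (n = 3) and 156 ± 36.6 TPM in WT mineral oil (n = 4). In the order of means the step between WT CCl4, the lowest, and ΔEGFR CCl4, the next, was larger than the larger SD, and the steps above it were not. The change over both genotypes was −0.98 ± 0.20 (adjusted p = 0.00378) and that in WT −1.34 ± 0.30 (adjusted p = 0.0146), against −0.62 ± 0.27 in ΔEGFR (adjusted p = 0.173). The WT call was lost without WT CCl4 replicate 2 (adjusted p = 0.0517) or 3 (0.0711). Over all other settings the adjusted p ran from 9.18e-05 to 0.0871 for the average and from 0.000476 to 0.0711 in WT. The difference of the CCl4 effects between the genotypes, 0.72 ± 0.39, did not pass (adjusted p = 1, unadjusted p = 0.0917). In mean log2 CPM CCl4 and mineral oil differed by −0.56 among the deep ΔEGFR libraries, by −1.29 among the shallow WT libraries and by −1.36 in the deep WT pair.

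Pklr (ENSMUSG00000041237, chromosome 3), the pyruvate kinase of liver and red cells, did not pass in any of these comparisons. It had 128, 182, 129 and 128 TPM in ΔEGFR CCl4 and 55.8, 146, 112 and 229 TPM in ΔEGFR mineral oil. WT libraries had 123, 77.4 and 118 TPM with CCl4 and 87.3, 114, 148 and 162 TPM with mineral oil. The treatments overlapped in both genotypes, and ΔEGFR CCl4 replicate 2 was well above the other libraries of its group. The group means ± SD were 142 ± 27 TPM in ΔEGFR CCl4 (n = 4), 136 ± 72.5 TPM in ΔEGFR mineral oil (n = 4), 106 ± 25.1 TPM in WT CCl4 (n = 3) and 128 ± 33.7 TPM in WT mineral oil (n = 4), steps smaller than the SDs. The averaged change was −0.59 ± 0.26 (adjusted p = 0.104), and of 24 other settings it passed in 1, without WT mineral oil replicate 1 (−0.68, adjusted p = 0.0473), the highest adjusted p being 0.959. In ΔEGFR it was −0.45 ± 0.35 (adjusted p = 0.442), with a log2 fold change of 0.05 without a scaling factor, and in WT −0.74 ± 0.38 (adjusted p = 0.22).

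Pkm (ENSMUSG00000032294, chromosome 9), the pyruvate kinase of muscle and of most dividing and immune cells, had the widest range of the 8 genes on a log scale. The gene-level counts do not separate its splice forms, and reads shared with processed copies may be split among genes. It had 137, 237, 152 and 102 TPM in ΔEGFR CCl4 and 18.8, 13.6, 41.4 and 1.91 TPM in ΔEGFR mineral oil. The WT libraries held 132, 244 and 474 TPM with CCl4 and 94.3, 3.37, 2.01 and 18.7 TPM with mineral oil. The treatments did not overlap in either genotype, and WT mineral oil replicate 1 was the mineral oil library nearest to the CCl4 range. Means ± SD of the groups were 157 ± 57.1 TPM in ΔEGFR CCl4 (n = 4), 18.9 ± 16.5 TPM in ΔEGFR mineral oil (n = 4), 283 ± 174 TPM in WT CCl4 (n = 3) and 29.6 ± 43.8 TPM in WT mineral oil (n = 4), and only the step between the mineral oil groups and the CCl4 groups was larger than the SDs beside it. Averaged over genotypes the change was 2.64 ± 0.74 (adjusted p = 0.0192), or 3.58 ± 0.63 (adjusted p = 0.00127) without that library, and it missed the threshold without WT CCl4 replicate 3 (2.44, adjusted p = 0.0526). Over all 24 other settings its adjusted p ran from 0.000744 to 0.0526. Within ΔEGFR it was 2.53 ± 1.03 (adjusted p = 0.153) and within WT 2.75 ± 1.07 (adjusted p = 0.109), the second passing without WT mineral oil replicate 1 (4.62, adjusted p = 0.00837). The deep ΔEGFR libraries differed by 3.07 in mean log2 CPM (3 CCl4 against 4 mineral oil) and the shallow WT libraries by 4.72 (2 against 3), while the deep WT pair differed by 1.68.

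Hk2 (ENSMUSG00000000628, chromosome 6), the insulin-responsive hexokinase of muscle and fat, was at low levels throughout. It had 4.06, 8.27, 4.73 and 2.41 TPM in ΔEGFR CCl4 and 0.69, 0.61, 1.89 and 0.1 TPM in ΔEGFR mineral oil. Among WT libraries it had 2.63, 4.21 and 8.97 TPM with CCl4 and 2.47, 0.3, 0.2 and 1.27 TPM with mineral oil. In TPM the treatments did not overlap in either genotype, but in scaled CPM those of WT did. Its mean ± SD was 4.87 ± 2.47 TPM in ΔEGFR CCl4 (n = 4), 0.822 ± 0.758 TPM in ΔEGFR mineral oil (n = 4), 5.27 ± 3.3 TPM in WT CCl4 (n = 3) and 1.06 ± 1.06 TPM in WT mineral oil (n = 4), with 1 step larger than the SDs, that between the mineral oil and the CCl4 groups. Counts of Hk2 in ΔEGFR mineral oil went down to 16. The transcript length of Hk2 as given by RSEM was 2549 to 5513 bases in that group, against 5413 to 5513 bases in the other 3 groups. A shorter length raises TPM relative to the count. The change over both genotypes was 1.96 ± 0.62 (adjusted p = 0.0327). The call was lost without any 1 of 6 libraries, namely ΔEGFR CCl4 replicates 2 (adjusted p = 0.0635) and 3 (0.0529), ΔEGFR mineral oil replicate 2 (0.0652), WT CCl4 replicates 2 (0.0551) and 3 (0.0893) and WT mineral oil replicate 2 (0.058). Over all 24 other settings its adjusted p ran from 0.00157 to 0.279. In ΔEGFR it was 2.13 ± 0.86 (adjusted p = 0.152) and in WT 1.79 ± 0.90 (adjusted p = 0.205), the WT value being 2.64 (adjusted p = 0.0508) without WT mineral oil replicate 1. The deep ΔEGFR libraries differed by 2.76 in mean log2 CPM, the shallow WT libraries by 2.55 and the deep WT pair by 1.19.

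Hk1 (ENSMUSG00000037012, chromosome 10), the hexokinase of brain and red cells, was likewise at low levels. It had 4.69, 9.5, 6.61 and 4.48 TPM in ΔEGFR CCl4 and 1.45, 1.24, 2.09 and 0.25 TPM in ΔEGFR mineral oil. In WT it had 5.35, 7.9 and 10.1 TPM with CCl4 and 8.04, 0.31, 0.29 and 2.03 TPM with mineral oil. The ΔEGFR treatments did not overlap, and those of WT overlapped only through WT mineral oil replicate 1. The group means ± SD were 6.32 ± 2.33 TPM in ΔEGFR CCl4 (n = 4), 1.26 ± 0.763 TPM in ΔEGFR mineral oil (n = 4), 7.77 ± 2.36 TPM in WT CCl4 (n = 3) and 2.67 ± 3.67 TPM in WT mineral oil (n = 4), and no neighbours in the order of means stood apart by more than the larger SD. The averaged change was 1.41 ± 0.64 (adjusted p = 0.118), which became 2.25 ± 0.50 (adjusted p = 0.00409) without that library, with adjusted p between 0.0039 and 0.209 over all 24 other settings. In ΔEGFR it was 1.70 ± 0.88 (adjusted p = 0.25) and in WT 1.11 ± 0.92 (adjusted p = 0.456), the WT value being 2.80 (adjusted p = 0.0211) without it. In mean log2 CPM the deep ΔEGFR libraries differed by 1.96 and the shallow WT libraries by 3.24, while the deep WT pair, of which WT mineral oil replicate 1 is a member, differed by −0.36.

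**Figure D2:**
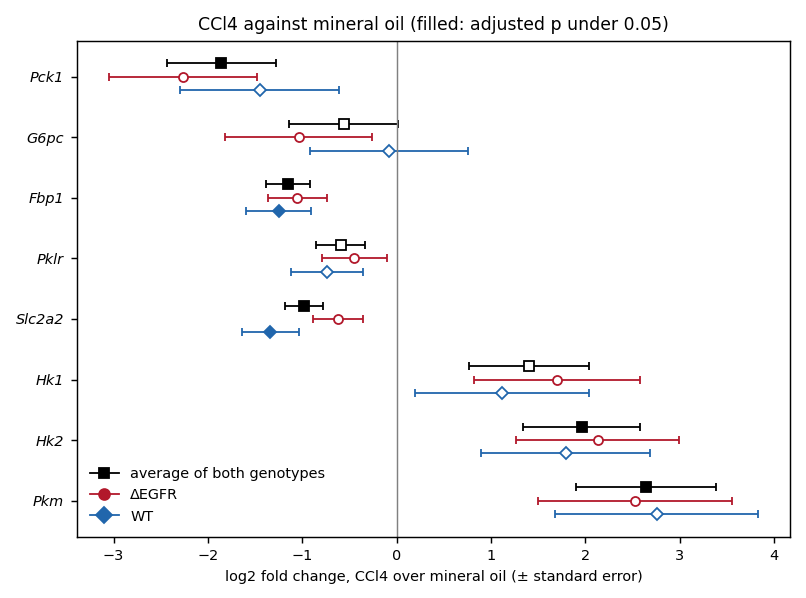
Log2 fold change of CCl4 over mineral oil for each gene, averaged over genotypes (squares), in ΔEGFR (circles) and in WT (diamonds), with bars of 1 standard error; filled symbols passed an adjusted p of 0.05. All 5 liver genes lie left of 0 and all 3 others right of it, and filled symbols are Pck1, Fbp1, Slc2a2, Hk2 and Pkm for the average and Fbp1 and Slc2a2 for WT.

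Within 1 genotype fewer members passed. In ΔEGFR edgeR called 0 of 8, where 4.15% of all genes were called (1.77% higher, 2.38% lower), while 5 of 8 had an unadjusted p under 0.05, as did 4447 of all 17975 genes. In ΔEGFR DESeq2 called 3 members (Pck1 and Fbp1 lower, Pkm higher) and 2410 of all genes, and limma on log2(TPM + 1) called 3 (Hk1, Hk2 and Pkm higher) and 2271 of all genes (2129 higher, 142 lower). In WT edgeR called 2 of 8, both lower, where 12.5% of all genes were called (5.31% higher, 7.2% lower), and 3 of 8 had an unadjusted p under 0.05, as did 5187 of all genes. In WT DESeq2 called 3 members, with Pkm higher besides (adjusted p = 0.0356), and 3622 of all genes. In limma the WT calls of Fbp1 (adjusted p = 0.0955) and Slc2a2 (0.0703) were lost and Hk1 (0.0485), Hk2 (0.0295) and Pkm (0.0164) were called higher, among 3222 of all genes (2874 higher, 348 lower). Counted by overlap in scaled CPM, 3 members (Hk1, Hk2, Pkm) were higher in all ΔEGFR CCl4 libraries than in any ΔEGFR mineral oil library and 0 were lower, where 12.3% of all genes were higher and 9.32% lower in this sense. In WT 1 member (Pkm) was higher in every CCl4 library and 2 (Fbp1, Slc2a2) were lower, where 12.1% of all genes were higher and 11.9% lower. In TPM the same 3 members were higher in ΔEGFR and 0 lower, where 20.6% of all genes were higher and 1.27% lower, and in WT 2 (Hk2, Pkm) were higher and 2 (Fbp1, Slc2a2) lower, where 28.3% of all genes were higher and 3.78% lower. A gene called in 1 genotype and not in the other is not shown to differ between them, and edgeR called 0 genes in the test of that difference (2 with DESeq2, 1 with limma, and 568 at an unadjusted p under 0.05).

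No member passed the test of ΔEGFR against WT. With edgeR 0 genes of 17975 passed under CCl4 (0% called, 411 with an unadjusted p under 0.05, 2 with DESeq2), 0 passed in mineral oil (0% called, 1197 unadjusted, 0 with DESeq2) and 0 passed for the interaction (0% called, 568 unadjusted, 2 with DESeq2). Slc2a2 under CCl4 came nearest among the members, at 0.73 ± 0.29 (1.65-fold higher in ΔEGFR, unadjusted p = 0.0275, adjusted p = 1), and its groups did not overlap in TPM or scaled CPM. Its genotypes differed by 0.77 in mean log2 CPM among shallow CCl4 libraries (1 ΔEGFR against 2 WT) and by 0.90 among deep ones (3 against 1). In scaled CPM it was the 1 member higher in every ΔEGFR CCl4 library than in any WT CCl4 library and 0 were lower, where 2.68% of all genes were higher and 2.38% lower. In TPM Pklr joined it, with 2 higher and 0 lower, where 2.9% of all genes were higher and 1.39% lower. In mineral oil 0 members stood apart between genotypes, where 1.44% of all genes were higher and 1.29% lower in scaled CPM and 0.228% higher and 0.684% lower in TPM. The other 7 members lay between −0.80 ± 1.04 (Pkm) and 0.41 ± 0.38 (Pklr) under CCl4, and all 8 between −0.91 ± 0.87 (Hk1) and 0.66 ± 0.78 (G6pc) in mineral oil. The standard errors were 0.75 to 1.04 for Pck1, G6pc, Hk1, Hk2 and Pkm and 0.27 to 0.38 for Fbp1, Pklr and Slc2a2. The interactions ran from −0.96 ± 1.14 (G6pc) to 0.72 ± 0.39 (Slc2a2). In mineral oil every ΔEGFR library was deep, and replicate 1 was the only deep WT library. Genotype and depth are therefore hard to tell apart in mineral oil. Against that single WT library the deep ΔEGFR libraries differed in mean log2 CPM by −2.88 (Hk1) to 0.59 (Fbp1 and Pklr).

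The balance between the forms of pyruvate kinase was read as a share of TPM within a library, which does not depend on the scaling between libraries. Pkm made up 51.8%, 56.5%, 54.2% and 44.4% of summed Pkm and Pklr transcripts in ΔEGFR CCl4 and 25.2%, 8.55%, 27% and 0.827% in ΔEGFR mineral oil. In WT it made up 51.8%, 75.9% and 80% with CCl4 and 51.9%, 2.87%, 1.34% and 10.3% with mineral oil. All CCl4 libraries therefore had between 44.4% and 80% Pkm, and 7 of the 8 mineral oil libraries had 27% or less, the other being WT mineral oil replicate 1. As a log2 ratio of TPM + 1, Pkm over Pklr averaged 0.10 in ΔEGFR CCl4 and −3.14 in ΔEGFR mineral oil, a difference of 3.24, and 1.25 in WT CCl4 and −3.32 in WT mineral oil, a difference of 4.57. The pooled SDs were 1.63 and 2.06.

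Together Hk1, Hk2 and Hk3 summed to 29.8, 63.5, 39 and 26 TPM in ΔEGFR CCl4 and 4.48, 3.75, 10.4 and 0.47 TPM in ΔEGFR mineral oil. In WT they summed to 21.3, 50.3 and 91.3 TPM with CCl4 and 34, 1.55, 0.96 and 7.83 TPM with mineral oil. The ΔEGFR treatments did not overlap, and those of WT overlapped through WT mineral oil replicate 1. Hk3, a hexokinase of blood cells, outweighed both Hk1 and Hk2 in all CCl4 libraries and in all mineral oil libraries except ΔEGFR replicate 4. It had 21, 45.8, 27.6 and 19.1 TPM in ΔEGFR CCl4 and 2.34, 1.9, 6.4 and 0.12 TPM in ΔEGFR mineral oil. WT libraries had 13.3, 38.2 and 72.2 TPM with CCl4 and 23.5, 0.94, 0.47 and 4.53 TPM with mineral oil, and its averaged change was 2.49 ± 0.79 (adjusted p = 0.0338). The Hk3 call was lost when any of ΔEGFR CCl4 replicates 2 and 3, ΔEGFR mineral oil replicate 2, WT CCl4 replicates 2 and 3 and WT mineral oil replicates 2 and 4 was left out (adjusted p = 0.0519 to 0.087).

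**Figure D3:**
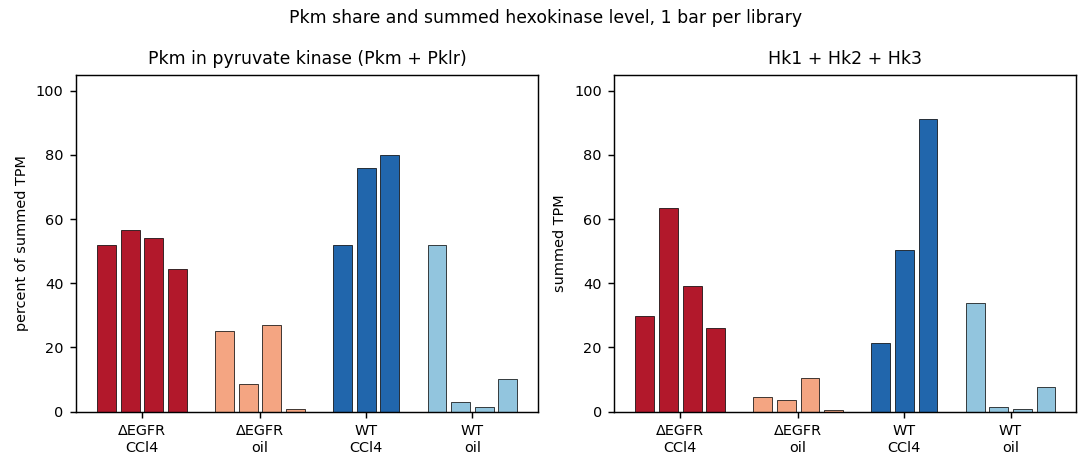
Share of Pkm in the summed TPM of Pkm and Pklr, in percent (left), and summed TPM of Hk1, Hk2 and Hk3 (right), with 1 bar per library in the order ΔEGFR CCl4, ΔEGFR mineral oil, WT CCl4 and WT mineral oil. The Pkm share is 44.4% or more in every CCl4 library, and WT mineral oil replicate 1, at 51.9% Pkm and 34 TPM of hexokinases, looks unlike the other mineral oil libraries.

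The 3 forms of other tissues and the macrophage markers both tended to be higher with CCl4. Every ΔEGFR and WT library in which these markers summed to at least 3151 TPM had at least 102 TPM of Pkm, 4.48 TPM of Hk1 and 2.41 TPM of Hk2, and all these were CCl4 libraries. In the mineral oil libraries, where the markers summed to at most 2123 TPM, Pkm was at most 94.3 TPM, Hk1 at most 8.04 TPM and Hk2 at most 2.47 TPM. These marker ranges are those of the treatments, so the division restates the treatment and cannot tell it apart from the markers. The highest mineral oil values of Hk1 and Hk2, both in WT replicate 1, lay within the CCl4 range. All 16 macrophage markers were detected in all 15 libraries, among them Cd68 at medians of 267 TPM in ΔEGFR CCl4 and 28.8 TPM in ΔEGFR mineral oil, and 457 TPM in WT CCl4 and 22.6 TPM in WT mineral oil. Endothelial markers summed to 179 to 409.7 TPM in ΔEGFR CCl4 and 39.8 to 153 TPM in ΔEGFR mineral oil. In WT they summed to 138 to 286 TPM with CCl4 and 32.7 to 421 TPM with mineral oil. Stellate cell markers summed to 111 to 454 TPM in ΔEGFR CCl4 and 18.3 to 119 TPM in ΔEGFR mineral oil, and to 89.4 to 295 TPM in WT CCl4 and 15.2 to 82.9 TPM in WT mineral oil. Acta2 of that list was at 0 in 1 library, and of the bile duct list Krt19, Cldn7 and Cftr were at 0 in 1, 2 and 4 libraries.

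A covariate for the mean log2 CPM of 71 markers of all other cells was added to the model. This score was 3.21 to 4.01 in ΔEGFR CCl4 and 0.02 to 3.09 in ΔEGFR mineral oil, and 3.20 to 3.96 in WT CCl4 and −0.29 to 4.75 in WT mineral oil, so in ΔEGFR it separated the treatments as well. With it the averaged change was 1.54 ± 0.31 for Pkm (adjusted p = 0.00934), 0.85 ± 0.48 for Hk2 (adjusted p = 0.279) and 0.38 ± 0.13 for Hk1 (adjusted p = 0.0734). Among the liver genes Slc2a2 kept its call at −0.76 ± 0.22 (adjusted p = 0.0473), Fbp1 missed it at −0.73 ± 0.22 (adjusted p = 0.0504) and Pck1 lost it at −1.26 ± 0.61 (adjusted p = 0.202). With the covariate 2006 genes were called in place of 4876. The score weighs all markers alike and was highest, at 4.75, in WT mineral oil replicate 1. The macrophage markers of that library summed to 2123 TPM, below the 3151 TPM or more of every CCl4 library. The covariate therefore does not stand for macrophages, and a call kept with it does not show that other cells played no part. The part of other cells in each member's level was not tested.

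**Figure D4:**
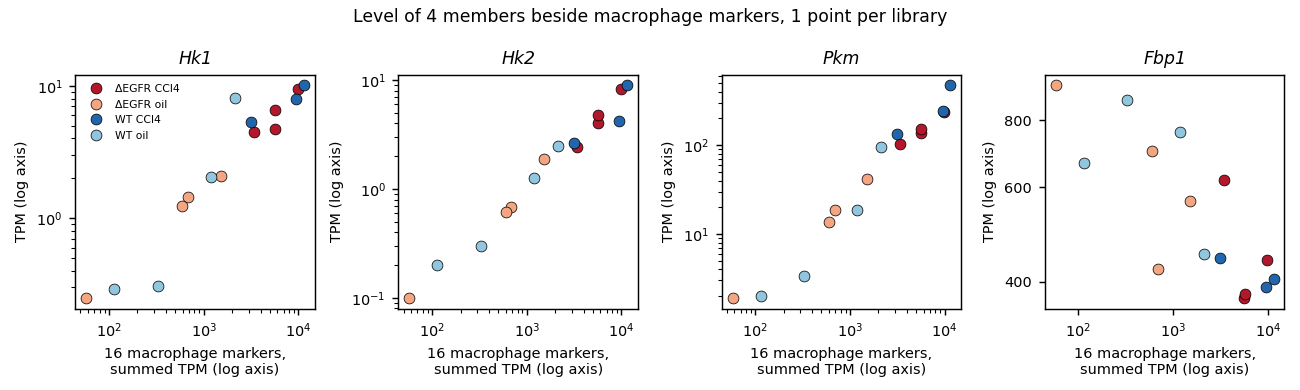
Level of Hk1, Hk2, Pkm and Fbp1 in TPM against the summed TPM of 16 macrophage markers, both on logarithmic axes, with 1 point per library coloured by group. CCl4 libraries lie at 3151 to 11494 TPM of markers and mineral oil libraries at 57.5 to 2123 TPM; the points of Hk1, Hk2 and Pkm climb with the markers and those of Fbp1 tend to descend.

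Over the 15 libraries, Pearson's r of log2(TPM + 1) was 0.98 between Hk1 and Pkm, 0.96 between Hk2 and Pkm and 0.95 between Hk1 and Hk2. Between liver genes it was 0.79 for Pklr and Slc2a2 and 0.72 for Pck1 and Fbp1 but 0.07 for Pck1 and Pklr, and between the sets it reached −0.84 for Fbp1 and Pkm. The libraries share treatment, genotype and makeup, so these values are descriptions. Of 14312 genes compared over the 15 libraries, those most like Pkm were Cotl1 (r = 0.999), Sh3bgrl3 (0.996) and Vim (0.995), the last an intermediate filament gene of mesenchymal and blood cells. Those most like Hk2 were Zfp90 (0.996), Rap2b (0.99) and Tbc1d9 (0.988), and those most like Hk1 were Sp110, Ttyh3 and Selenon (0.993 each).

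For the liver genes the highest values of r were lower. Albumin (Alb) was most like G6pc (r = 0.925), ahead of Elovl2 (0.834) and Echdc1 (0.827). Fbp1 was most like Acsf2 (0.936), Fah (0.929), the last enzyme of tyrosine breakdown, and Sardh (0.929). Pck1 was most like F9 (0.851), which encodes coagulation factor IX, Sult1a1 (0.841) and Hrg (0.829). Pklr was most like Uqcc1 (0.886), Pdha1 (0.886) and Elovl6 (0.884), and Slc2a2 most like Xylb (0.921), Ulk1 (0.909) and Tlcd1 (0.898).

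The rest of the glucose pathway was read from 10 lists that hold 116 genes, of which 114 were tested. With CCl4 averaged over genotypes, the gluconeogenesis list had 7 lower and 2 higher of 12 genes, with a median log2 fold change of −0.87 beside −0.02 over all 17975 genes, of which 15.1% were lower and 12% higher, the background for each list in this comparison. Beside Pck1, Fbp1 and Slc37a4 the lower ones included Got1, the cytosolic aspartate aminotransferase (−1.79 ± 0.30, adjusted p = 0.00137), and Slc25a10, the mitochondrial dicarboxylate carrier (−0.89 ± 0.16, adjusted p = 0.00191). Both calls held under all other settings. The 2 genes that rose, named after their values were seen, were Pck2, the mitochondrial carboxykinase (1.37 ± 0.44, adjusted p = 0.0346, up to 0.417 under other settings), and G6pc3, the glucose-6-phosphatase of most tissues (0.65 ± 0.14, adjusted p = 0.00552). The Pck2 call was lost without ΔEGFR CCl4 replicate 4, ΔEGFR mineral oil replicate 1 or 4, WT CCl4 replicate 1 or 2, or WT mineral oil replicate 2. Without the scaling factor the list median was −0.42 and that of all genes 0.42.

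In the list of 7 genes of hexose phosphorylation and its regulation Hk2 and Hk3 rose and Gckr fell (median 0.15). The Gckr change of −0.63 ± 0.18 (adjusted p = 0.0218) was lost without WT CCl4 replicate 2 (adjusted p = 0.0605) or 3 (0.079) and reached 0.913 with limma. With the marker covariate 0 of the 7 were called. The middle of glycolysis, with 14 genes tested, had 3 higher and 2 lower (median −0.02), where 27.1% of all genes were called. Aldoc, the brain aldolase, fell (−1.12 ± 0.16, adjusted p = 0.000656). Aldoa, the muscle aldolase, rose (1.13 ± 0.17, adjusted p = 0.000722), as did the neuronal enolase Eno2 (4.04 ± 0.62, adjusted p = 0.000906). Pfkl was the other gene to rise, by 0.33 ± 0.10 (adjusted p = 0.0287, up to 0.0637 under other settings), and is named after its value was seen; its call was lost without ΔEGFR CCl4 replicate 2, ΔEGFR mineral oil replicate 4 or WT mineral oil replicate 2 or 3. The calls of Aldoa, Aldoc and Eno2 held under all other settings.

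The fate of pyruvate gave 4 higher and 5 lower of 16 genes (median −0.13). Ldhb, a lactate dehydrogenase subunit of heart, rose (1.69 ± 0.40, adjusted p = 0.00769). The pyruvate dehydrogenase kinases went both ways. Pdk1 (−0.98 ± 0.25, adjusted p = 0.0123) and Pdk2 (−1.07 ± 0.21, adjusted p = 0.00313) fell, and Pdk3 (1.84 ± 0.60, adjusted p = 0.0361, up to 0.0825 under other settings) and Pdk4 (1.92 ± 0.54, adjusted p = 0.0184), named after their values were seen, rose. Pdhb, a subunit of the dehydrogenase itself, fell by 0.50 (SE 0.13, adjusted p = 0.0104), and lost its call without WT CCl4 replicate 2 (adjusted p = 0.0532), its sign turning with limma (0.04, adjusted p = 0.859). The Pdk3 call was lost without any 1 of ΔEGFR CCl4 replicates 2, 3 and 4, ΔEGFR mineral oil replicates 2 and 4, WT CCl4 replicates 2 and 3 and WT mineral oil replicates 2 and 4. Of these genes the marker covariate left Pdk2 called and ended the calls of Ldhb, Pdhb, Pdk1, Pdk3 and Pdk4.

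**Figure D5:**
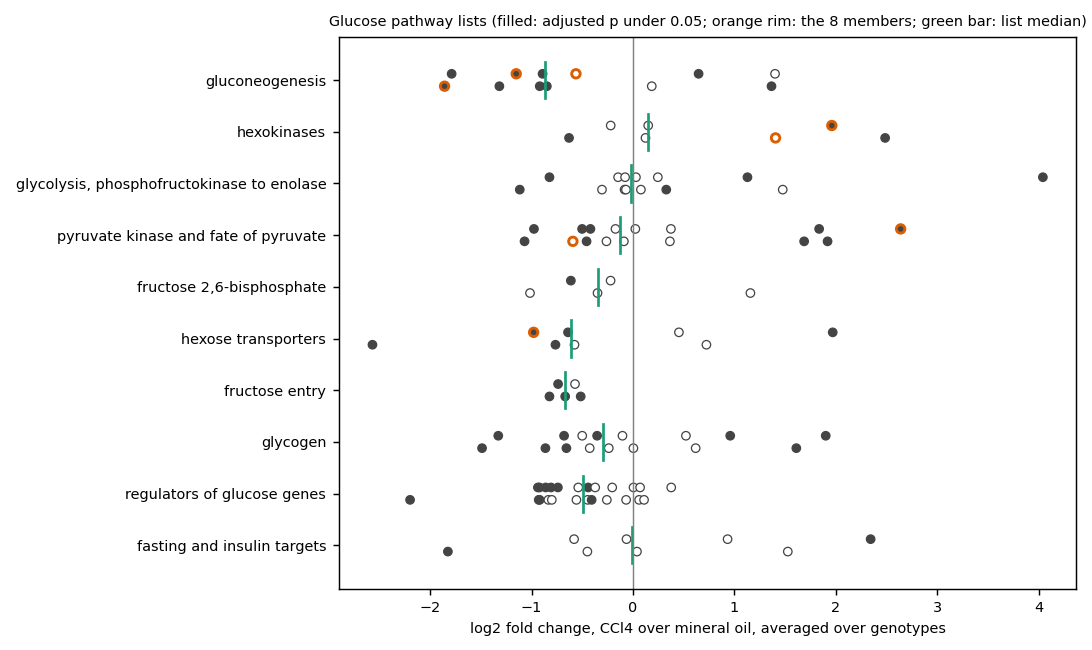
Log2 fold change of CCl4 over mineral oil, averaged over genotypes, for the 114 tested genes of 10 glucose pathway lists, with 1 point per gene; filled points passed an adjusted p of 0.05, orange rims mark the 8 genes described here and green bars are list medians. Medians run from −0.87 for gluconeogenesis to 0.15 for the hexokinases.

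Of 8 hexose transporters tested, GLUT2 included, 4 fell and 1 rose (median −0.61). The fructose transporter Slc2a5 fell most (−2.57 ± 0.45, adjusted p = 0.00166) and was called under all other settings, Slc2a8 (−0.64 ± 0.12, adjusted p = 0.0028) and the urate transporter Slc2a9 (−0.77 ± 0.19, adjusted p = 0.0104) fell less, and Slc2a10 (1.97 ± 0.60, adjusted p = 0.0282, up to 0.234 under other settings and lost without ΔEGFR CCl4 replicate 2 or WT CCl4 replicate 1), named after its value was seen, rose. Fructose breakdown had 4 of 5 genes lower (median −0.67), among them ketohexokinase Khk (−0.74 ± 0.17, adjusted p = 0.0069), sorbitol dehydrogenase Sord (−0.67 ± 0.16, adjusted p = 0.00831) and triokinase Tkfc (−0.52 ± 0.16, adjusted p = 0.0329). Without a scaling factor, or with the marker covariate, 0 of these 5 were called. Tkfc lost its call when any of ΔEGFR CCl4 replicates 1 to 3, ΔEGFR mineral oil replicate 4, WT CCl4 replicates 2 and 3 and WT mineral oil replicates 2 and 4 was left out (adjusted p = 0.0564 to 0.124) and turned in sign with limma (0.03, adjusted p = 0.905).

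Glycogen metabolism had 6 lower and 3 higher of 16 genes (median −0.30), where 15.1% of all genes were lower and 12% higher. Glycogenin Gyg, which primes the polymer, rose (1.61 ± 0.27, adjusted p = 0.00147) under all settings, and Pgm2 rose (0.96 ± 0.23, adjusted p = 0.00871). The liver phosphorylase Pygl (−0.86 ± 0.17, adjusted p = 0.00297) and the branching enzyme Gbe1 (−0.68 ± 0.14, adjusted p = 0.00397) fell. In the list of fructose 2,6-bisphosphate enzymes 1 of 5 fell, Pfkfb2 (−0.61 ± 0.16, adjusted p = 0.0143, median −0.35), a call lost without WT CCl4 replicate 2 (adjusted p = 0.0516) or 3 (0.063) and at 0.746 with limma.

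Of 24 regulators of glucose genes 10 fell and 0 rose (median −0.49), where 15.1% of all genes were lower and 12% higher. They included the insulin receptor Insr (−0.86 ± 0.13, adjusted p = 0.000906), the factors Onecut2 (−0.92 ± 0.15, adjusted p = 0.00107) and Hnf4a (−0.92 ± 0.19, adjusted p = 0.00432) and the CREB coactivator Crtc2 (−0.41 ± 0.09, adjusted p = 0.00485), whose sign turned without a scaling factor (0.05). Without a scaling factor, where the median of all genes was 0.42, the 24 genes had a median of −0.04, with 4 lower and 1 higher. Among 8 targets of fasting and insulin, the serine dehydratase Sds fell (−1.83 ± 0.50, adjusted p = 0.0175) and the hormone gene Fgf21 rose (2.34 ± 0.80, adjusted p = 0.044), and the Fgf21 call was lost when any of ΔEGFR CCl4 replicates 1 and 4, ΔEGFR mineral oil replicates 1, 3 and 4, WT CCl4 replicates 1 and 3 and WT mineral oil replicates 1 to 3 was left out (adjusted p = 0.0509 to 0.0864). That list had a median of −0.01.

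Within single genotypes fewer list genes passed. In ΔEGFR the lists held 2 lower gluconeogenesis genes, Got1 (−1.85 ± 0.40, adjusted p = 0.0306) and Slc25a10 (−0.89 ± 0.22, adjusted p = 0.0406), along with Aldoc (−1.08 ± 0.22, adjusted p = 0.0238), Aldoa (0.94 ± 0.23, adjusted p = 0.0406), Gyg (1.51 ± 0.38, adjusted p = 0.042) and Onecut2 (−0.85 ± 0.20, adjusted p = 0.0367). Each of these 6 calls was lost without ΔEGFR CCl4 replicate 1 or 3 or ΔEGFR mineral oil replicate 4, and with the marker covariate, the highest adjusted p over all other settings being 0.105 for Got1 and 0.45 for Onecut2. The WT calls included Slc37a4 (−1.72 ± 0.32, adjusted p = 0.00736), Insr (−1.17 ± 0.20, adjusted p = 0.00549) and Eno2 (5.09 ± 0.94, adjusted p = 0.00691). The WT calls of Slc37a4, Insr and Eno2 held without any single library. In ΔEGFR 1 of 24 regulators was lower, against 7 of 24 in WT, among them the glucose-sensing factor Mlxipl (−1.29 ± 0.33, adjusted p = 0.0255, up to 0.144 under other settings), whose call was lost without any 1 WT CCl4 library or WT mineral oil replicate 2 or 3. Since 4.15% of all genes were called in ΔEGFR and 12.5% in WT, and edgeR called 0 genes for the interaction, against 2 with DESeq2 and 1 with limma, no difference between the genotypes can be read from these counts.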

How the data were processed

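Messenger RNA of primary hepatocytes from 15 libraries in 4 groups was extracted with RNA STAT 60 and made into libraries with a KAPA stranded kit, per the labels' protocols. The deposited files hold expected counts and TPM per gene for each library, made with STAR 2.7.8a and RSEM 1.3.0 on GRCm39 as the submitters' processing notes list. Which annotation was used, and whether strand was, is not given in the sources used here. TPM values were used as the authors deposited them. RSEM divides reads that fit several genes, so a gene with processed copies elsewhere, as may hold for Pkm and Aldoa, is uncertain, and the files do not separate splice forms. The files hold another gene ID with the symbol Aldoa, which did not pass the filter on low counts and was left out. Symbols were found for 52029 of 56953 gene IDs (91.4%) in a name table of another build.

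Rounded expected counts entered a robust quasi-likelihood fit of edgeR 4.0.16 (R 4.3.3) over all 15 libraries with TMM factors. Genes were filtered by group with a minimum count of 10 and a minimum total of 15, and p-values were adjusted by Benjamini-Hochberg over 17975 genes at a threshold of 0.05. There were 6 contrasts, namely treatment in each genotype and averaged, genotype in each treatment, and the interaction. The SE is the absolute log2 fold change over the square root of F. The biological coefficient of variation was 50.9%, with 3 or 4 libraries a group. Reads carried no molecular identifiers. The fit was also run on simulated counts with the real library sizes and known changes in some genes. Those counts held no outlying library and no shift in makeup, so they do not show how the fit handles either. Alternatives included DESeq2 1.42.0, limma 3.58.1 on log2(TPM + 1), other scaling factors and filters, covariates for other-cell markers and for depth, and leaving out each library. Isoform ratios used a pseudocount of 1 TPM. Python 3.11.15 with pandas 2.3.3 made the tables.

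The text names the 8 members, up to 4 called genes with the lowest adjusted p per list and comparison, and for each member the 3 genes with the highest r, predicted genes left out. Some genes of the lists are not reported here. The members and lists were chosen with earlier results of these data known. No genome of the files' build was used, and promoter windows are those of the RefSeq table.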

Additional observations from a re-analysis of the deposited data

Results flagged for a closer look

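Pklr, the liver pyruvate kinase, had 182 TPM in ΔEGFR CCl4 replicate 2, against 128 to 129 TPM in the other 3 libraries of that group. The gap to the nearest of them was 0.978 of the group's whole range, above Dixon's critical value of 0.829 for 4 values. This was 1 of 24 sets of 4 values examined, and chance marks about 1 set in 20.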

How the results depend on the processing

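In 24 or 25 other settings for each member and comparison, 1071 of the members' fold changes kept their direction and their side of the threshold, 30 lost their call, 21 gained one and 62 changed sign. With CCl4 averaged over genotypes, 5 members and 4876 genes were called, with 3 members without a filter on low counts, 2 members and 2006 genes with the marker covariate, and 7460 genes with limma on log2(TPM + 1). In ΔEGFR, where 0 members and 746 genes were called, there were 3 members and 2410 genes with DESeq2, 3 and 2271 with limma, 1 and 1643 with the depth covariate, 1286 genes with only the groups compared, 1180 without a scaling factor, 470 without a filter and 170 with the marker covariate. In WT, where 2 members and 2250 genes were called, there were 3622 genes with DESeq2, 1457 without a filter, 1122 with the marker covariate and 533 genes and 1 member with only the groups compared. DESeq2 called 2 genes for ΔEGFR against WT under CCl4 and 2 for the interaction, and limma 1 for the interaction. The split of calls into higher and lower moved without a scaling factor, to 997 higher and 183 lower in ΔEGFR, against 319 and 427, and to 2326 higher and 515 lower in WT, against 955 and 1295. With upper-quartile factors it was 315 higher and 275 lower in ΔEGFR.

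Leaving out 1 library gave 3293 to 7810 genes and 2 to 7 members for the average, 75 to 2145 genes and 0 to 1 member in ΔEGFR, and 575 to 5111 genes and 0 to 4 members in WT. In WT the lowest count of genes came on leaving out WT CCl4 replicate 3 and the highest on leaving out WT mineral oil replicate 1.

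Among the members, signs turned only in results that had not passed their test. G6pc in WT was 0.27 without a scaling factor, 0.007 without a filter, 0.34 with limma and 0.36 with the marker covariate, and its average was 0.045 with limma and 0.074 with the covariate. Pklr in ΔEGFR was 0.048 without a scaling factor, 0.22 with limma and 0.15 with the covariate. For ΔEGFR against WT in mineral oil, Slc2a2 was −0.023 with DESeq2 and with RLE factors, −0.024 without a factor, −0.008 at 1 CPM in 3 libraries, −0.013 with only the groups compared, −0.068 with limma and −0.028 with the marker covariate. Fbp1 was 0.043 without a filter and 0.24 with depth, Pck1 −0.022, Pklr −0.049 and Pkm 0.13 with limma, and Pkm 0.17 with the marker covariate. Under CCl4 the depth covariate gave Pck1 0.075 and G6pc 0.15, and for the interaction the marker covariate gave Hk1 −0.19. Of called genes, Crtc2 was 0.051 without a factor and 0.12 with limma, Gckr 0.026, Pdhb 0.042 and Tkfc 0.03 with limma. The cause was not tested in any of these.

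With 1 library left out, ranges that crossed 0 were −0.61 to 0.33 for G6pc in WT and −0.68 to 0.067 for Pklr in ΔEGFR. In mineral oil they were −0.55 to 0.73 for Pck1, −0.29 to 1.09 for G6pc, −0.31 to 0.17 for Fbp1, −0.41 to 0.34 for Pklr, −0.35 to 0.21 for Slc2a2, −1.297 to 0.774 for Hk1, −0.98 to 0.42 for Hk2 and −1.019 to 1.298 for Pkm. Under CCl4 they were −1.16 to 0.045 for Pck1, −0.98 to 0.31 for G6pc, −0.13 to 0.29 for Fbp1 and −0.38 to 0.38 for Hk2. For the interaction they were −1.09 to 0.96 for Hk1, −0.52 to 0.89 for Hk2, −0.12 to 0.47 for Fbp1 and −2.10 to 0.23 for Pkm.

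No paired analysis was possible because the labels give no replicate numbers that link libraries across groups. For the pathway lists the other settings, among them leaving out each library in turn, were not planned beforehand. A comparison of the members' proteins was not run. Levels of Hk1 and Hk2 rested on as few as 36 and 16 counts in single mineral oil libraries.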
